A study of Homo sapiens with 24 samples.

Results

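The pro-apoptotic BCL2 family was followed here through 10 genes: the effectors BAX and BAK1, and the BH3-only genes BID, BCL2L11 (BIM), BBC3 (PUMA), PMAIP1 (NOXA), BAD, BIK, BMF and HRK. Chromatin accessibility was read by ATAC-seq, in which a transposase cuts and tags open DNA, in VAL and OCI-LY3, established lines of human diffuse large B-cell lymphoma. Each line was exposed to 30 nM AZD4573, an inhibitor of CDK9, for 0, 3 or 8 h, giving 6 groups of 4 libraries, of which 2 were standard ATAC-seq from 50000 cells and 2 were Fast-ATAC from 5000 cells by the sample labels (the protocol text gives 50000). The deposited lists compare 3 h or 8 h of drug with control cells of the same line (named DMSO in the lists and taken here as the 0 h libraries), and hold the positions of regions called increased or decreased in accessibility. A region was assigned to a gene when it overlapped the gene body or came within 10 kb of an annotated transcription start site (TSS). By that rule, 22 of the 26369 distinct regions of the 8 lists belonged to the 10 genes, which are 10 of the 20163 protein-coding genes on the listed chromosomes.

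The members meet at the outer mitochondrial membrane. BAX and BAK1 assemble there into pores that release cytochrome c, and anti-apoptotic relatives such as MCL1 and BCL2 hold them in check. The BH3-only proteins relieve that check: BID, BIM and PUMA can also engage BAX and BAK1 directly, whereas NOXA, BAD, BIK, BMF and HRK mainly occupy the anti-apoptotic proteins, NOXA with a preference for MCL1. CDK9 is the kinase of P-TEFb, which releases paused RNA polymerase II into elongation, and B-cell lymphomas often depend on MCL1 or BCL2 for survival.

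The 0 h libraries of a line serve as control for both its 3 h and its 8 h list, so the 2 lists of a line are not independent of each other. The lists hold no counts, fold changes or scores for single libraries. Depth is therefore unknown, no error between libraries can be attached to a call, the 2 library protocols cannot be told apart, and the labelled identity of the cells could not be checked against marker genes. A gene or region that is not on a list may still have changed by less than the authors' limits required. The treatment was described as made in duplicate, and the labels do not say whether the 4 libraries of a group came from separate cultures.

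Sequences are shown for the regions on which the account turns, read 5′ to 3′ on the strand of the gene from build hg19. The first set lies upstream of the TSS of BAX and BAD, the genes whose TSS region was increased in both lines, inside that region. For BAX (chr19:49457932-49458131, plus strand) capitals mark the 4 E-boxes. BAD (chr11:64052236-64052351, minus strand) is shown as 116 bases and holds none of the marked motifs.
BAX upstream of TSS: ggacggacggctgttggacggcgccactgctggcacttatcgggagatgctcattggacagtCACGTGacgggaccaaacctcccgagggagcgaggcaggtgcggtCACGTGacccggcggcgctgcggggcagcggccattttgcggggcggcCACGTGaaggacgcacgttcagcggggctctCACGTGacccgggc
BAD upstream of TSS: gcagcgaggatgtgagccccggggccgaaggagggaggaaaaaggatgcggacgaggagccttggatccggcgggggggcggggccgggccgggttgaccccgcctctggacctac

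The second set was added after the values were seen. It shows the decreased region nearest to the end of PMAIP1 (chr18:57572125-57572324, plus strand), the intronic region of BCL2L11 increased at both times in VAL (chr2:111914788-111914987, plus strand), and the different BAK1 regions increased in OCI-LY3 (at the TSS, chr6:33548071-33548270, minus strand) and in VAL (about 5 kb upstream, chr6:33553497-33553696, minus strand). Apart from the window at the BAK1 TSS, each is the central 200 bases of its region. In the upstream BAK1 window, capitals mark first a match to the CTCF motif and then an E-box.
PMAIP1 downstream: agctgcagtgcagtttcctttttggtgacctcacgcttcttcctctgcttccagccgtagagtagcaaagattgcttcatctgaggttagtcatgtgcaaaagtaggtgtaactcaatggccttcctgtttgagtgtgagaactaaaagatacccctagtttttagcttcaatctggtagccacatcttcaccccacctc
BCL2L11 intron 3: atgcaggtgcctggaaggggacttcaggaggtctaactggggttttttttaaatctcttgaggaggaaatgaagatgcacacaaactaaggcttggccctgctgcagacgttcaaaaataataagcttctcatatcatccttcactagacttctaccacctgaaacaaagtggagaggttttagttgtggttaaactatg
BAK1 upstream of TSS: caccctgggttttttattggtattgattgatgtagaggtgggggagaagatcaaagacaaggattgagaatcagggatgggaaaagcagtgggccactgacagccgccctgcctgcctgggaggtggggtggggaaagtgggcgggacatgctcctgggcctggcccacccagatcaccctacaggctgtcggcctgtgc
BAK1 distal: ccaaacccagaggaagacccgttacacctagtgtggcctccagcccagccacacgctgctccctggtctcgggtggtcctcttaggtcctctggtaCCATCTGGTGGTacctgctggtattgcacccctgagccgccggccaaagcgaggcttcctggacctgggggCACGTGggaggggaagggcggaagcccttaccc

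Increased regions outnumbered decreased ones at the family. Of the 22 regions, 19 were increased, 3 were decreased and 0 were called in both directions. Over all 26369 listed regions, 13686 were increased in at least 1 list and 12877 decreased. Those totals take in regions at any distance from a gene, unlike the 22. Near genes the lists leaned to increase in general: 34.9% of all increased regions covered a protein-coding TSS, but only 6.55% of all decreased ones did. 8 genes had only increased regions, as did 37.0% of all protein-coding genes. PMAIP1 and HRK had only decreased ones, as did 2817 of the 20163. No member had both or none, whereas 1209 of the 20163 had both and 43.0% had none. The increased set held both effectors, all 3 direct activators, and BAD, BIK and BMF. In VAL 18 regions at 8 genes were called, and in OCI-LY3 10 regions at 7 genes. The VAL lists were longer throughout, with 20381 called regions in all at 8 h against 7830 in OCI-LY3. The regions ran from 468 to 2430 bp in width, with a median of 1418.5 bp. 6 regions were on 1 list, 13 on 2, 2 on 3 and 1 on all 4.

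At 3 h in VAL, 5 of the 10 genes had an increased region (BBC3, BCL2L11, BAX, BAK1 and BIK), where 16.9% of all protein-coding genes did. At 8 h in VAL there were 7, with BID and BAD added, where the share of all genes was 36.9%. In OCI-LY3, 3 of the 10 (BID, BAX and BAK1) had an increased region at 3 h, beside 10.6% of all genes. At 8 h in OCI-LY3 there were 6 (BBC3, BID, BAX, BAK1, BMF and BAD), beside 19.0%. In each of the 4 comparisons the family's share was thus above the background, although 1 gene alone moves a share of 10 genes by 10 percentage points. Members' search windows, gene body included, spanned 20.0 kb (PMAIP1 and BAK1) to 57.5 kb (BCL2L11), against a median of 36.8 kb over all protein-coding genes.

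Decreased regions were found for 0 or 1 member in each comparison, which is near the share of all genes. In VAL no member had any at 3 h, where 4.70% of all genes did, and PMAIP1 was the 1 member at 8 h, where 14.2% did. In OCI-LY3 the 1 member was HRK at both times, beside 5.29% of all genes at 3 h and 8.18% at 8 h.

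**Figure D1:**
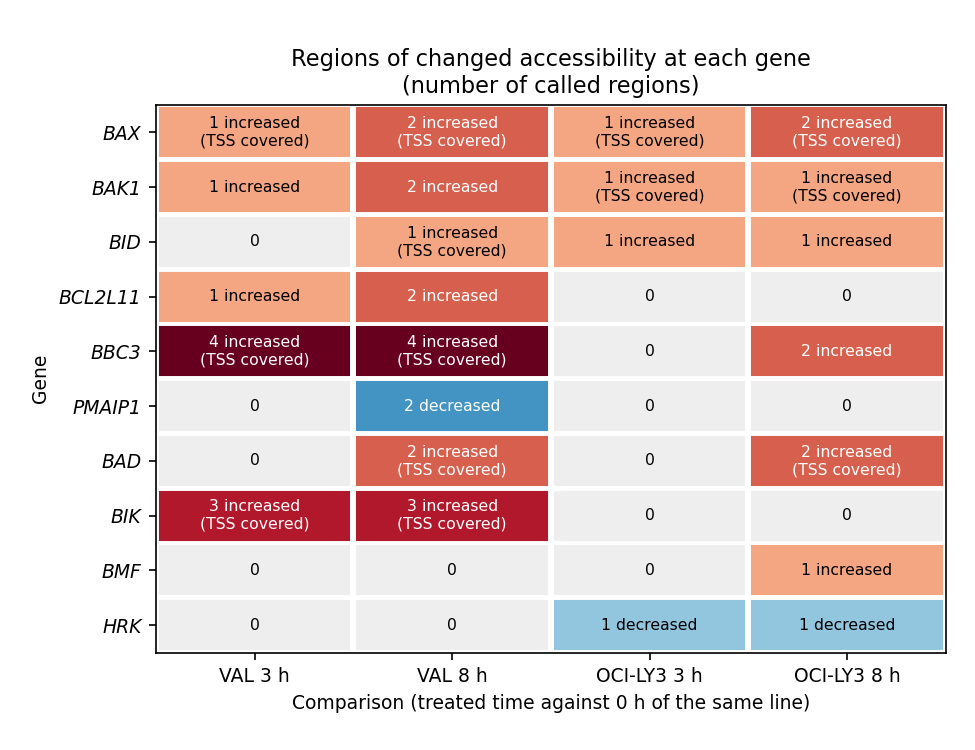
Number of increased (red) and decreased (blue) regions at each of the 10 genes, in rows, for the 4 comparisons, in columns. BAX and BAK1 have an increased region in every column, BBC3 has 4 in VAL at 3 h and at 8 h, and the decreased calls are those of PMAIP1 (VAL, 8 h) and HRK (OCI-LY3, both times).

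**Figure D2:**
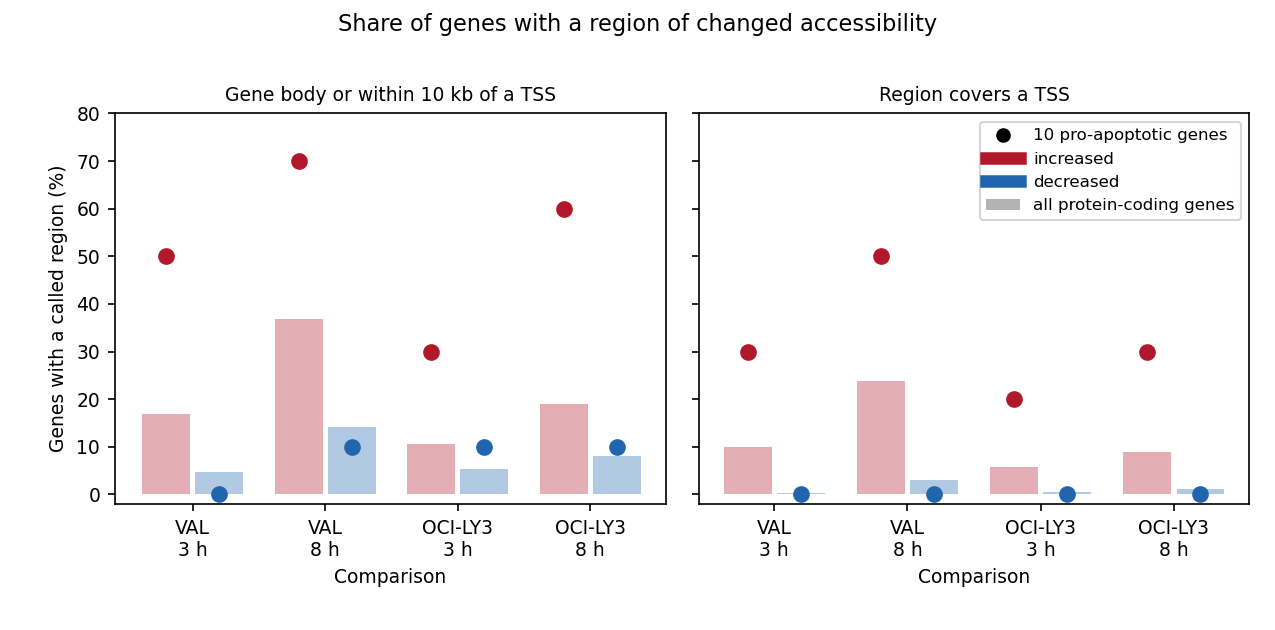
Percent of the 10 members (points) and of all 20163 protein-coding genes (bars) with an increased (red) or decreased (blue) region, by comparison, for regions in the gene body or within 10 kb of a TSS (left) and for regions that cover a TSS (right). On the left, the points for increased regions stand at 5, 7, 3 and 6 of 10 members, above bars of 16.9%, 36.9%, 10.6% and 19.0%, and those for decreased regions stand at 0 or 1 of 10.

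Of the effectors, BAX carried the 1 region called in all 4 comparisons. That region (chr19:49457652-49458980, 1329 bp) was increased in both lines at both times. It covers the BAX TSS and overlaps exons 1 to 3 of the gene (chr19:49458072-49465055, plus strand). A TSS covered by an increased region in all 4 comparisons was found for 2.77% of all protein-coding genes, and BAX was the 1 such member. A second BAX region (chr19:49467903-49469542), reaching to within 9717 bp of the BAX TSS, was increased at 8 h in both lines. Its midpoint lies 156 bp from the TSS of the neighbouring ferritin light chain gene FTL, so it can be read as the FTL promoter as well.

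BAK1, the other effector, also had increased regions in all 4 comparisons, but the regions differed between the lines. In OCI-LY3 the increased region covered the TSS (chr6:33547247-33548688) at 3 h and 8 h. In VAL that interval was on no list, and the increased regions lay 4951 bp upstream of the TSS (chr6:33553021-33554174, at 3 h and 8 h) and past the 3′ end of the gene (chr6:33538353-33539747, at 8 h). BAX and BAK1 were the 2 members with increased regions in all 4 comparisons, a pattern that 5.46% of all genes had.

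Among the direct activators, BBC3, which encodes PUMA and is a classical p53 target, had the most regions. All 4 were increased in VAL at 3 h and at 8 h. The first overlaps coding exons 2 and 3 (chr19:47729220-47731649), and the second covers the TSS of the canonical transcript (chr19:47733277-47735545). The others lie outside the gene body and begin 3804 bp (chr19:47739827-47740573) and 6721 bp (chr19:47742744-47743211) upstream of the nearest BBC3 TSS. In OCI-LY3 none was listed at 3 h, and at 8 h 2 were increased, the exonic one and the nearer upstream one, without the TSS region. 4 or more increased regions were found at 0.298% of all genes in VAL at 3 h and at 1.28% of those on chromosome 19, and at 8 h at 2.34% and 6.82%.

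BCL2L11 encodes BIM, which BCL2 binds in many lymphoid cells. Its increased regions were intronic and were found in VAL alone: the one in intron 3 (chr2:111913975-111915801) at both times, and the one in intron 2 (chr2:111904867-111906485) at 8 h. They lie 33822 bp and 24714 bp from the nearest TSS and were assigned through the gene body. Chromosome 2 was poor in increased calls. In VAL only 32.5% of its called regions were increased at 3 h and 24.4% at 8 h, and 6.54% and 20.3% of its genes had an increased region.

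BID, cleaved by caspase-8 into an active form, showed a different region in each line. In VAL at 8 h the increased region covered the TSS (chr22:18255762-18257553, with exon 1 and part of intron 1). In OCI-LY3 it was a shorter region outside the gene body, 521 bp long and 2558 bp upstream of the nearest BID TSS (chr22:18259989-18260509), at 3 h and 8 h. Only protein-coding genes were searched, so a non-coding gene at that place would not be seen. On chromosome 22, 79.3% of genes had an increased region in VAL at 8 h. In OCI-LY3 the share was 5.78% at 3 h and 19.6% at 8 h.

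**Figure D3:**
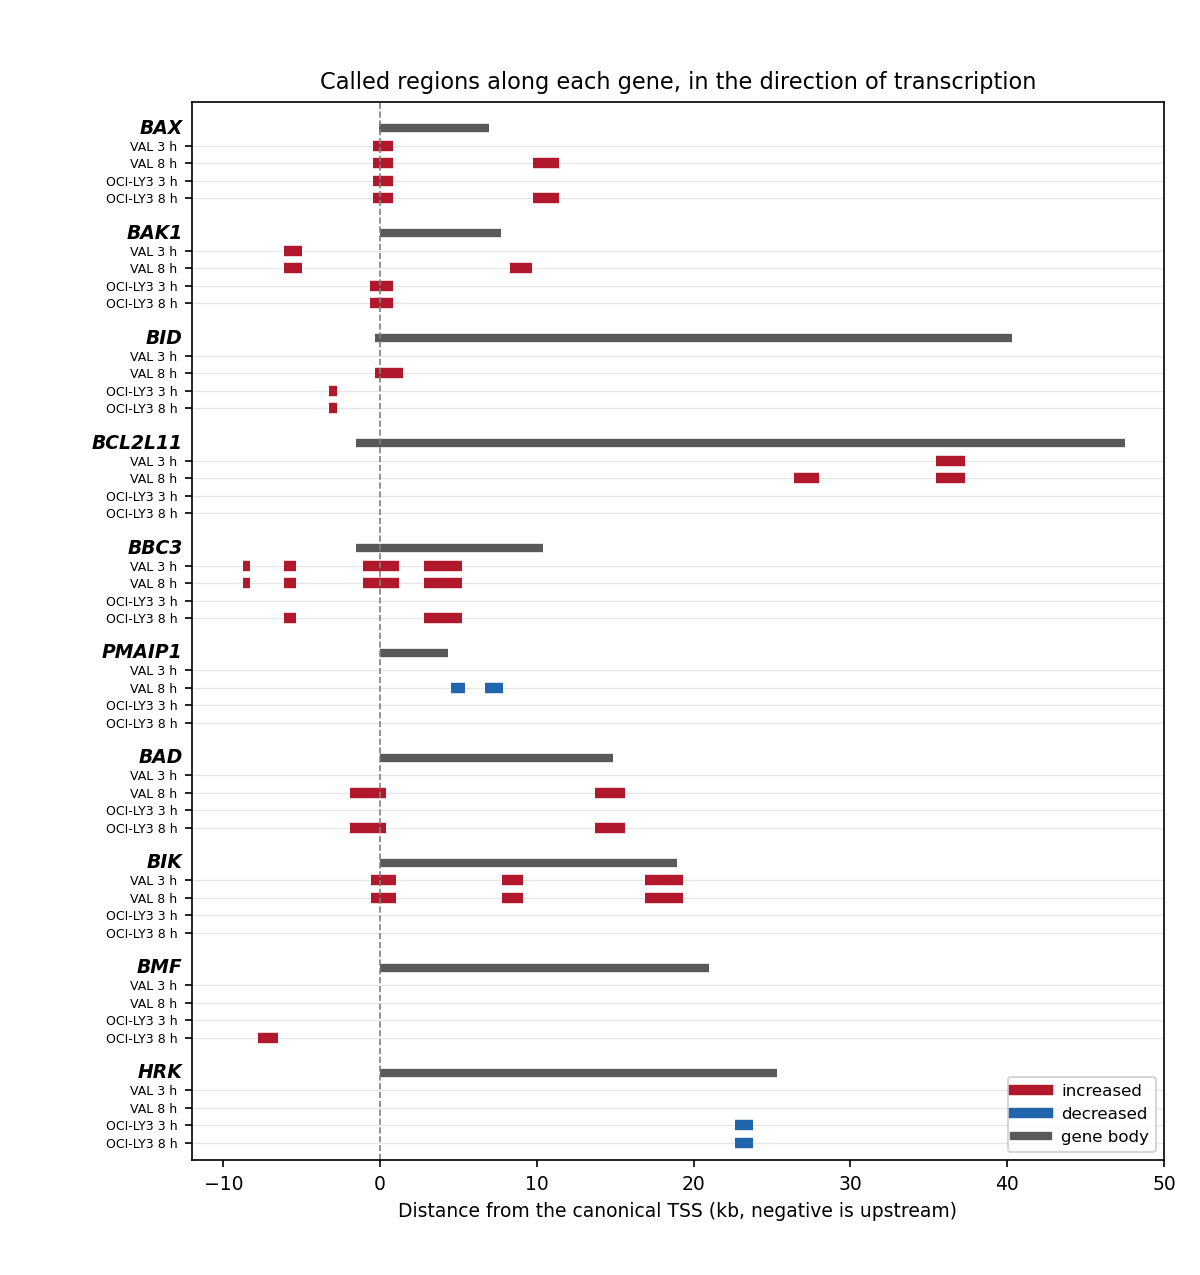
The 22 regions by distance from the canonical TSS of their gene, in kb along the direction of transcription, with 1 block per gene that holds its body (grey) and a row for each of the 4 comparisons, and regions in red (increased) or blue (decreased). The regions of BCL2L11 and HRK lie deep in the gene body, those of PMAIP1 past its end, and BAX has a red bar over the TSS in all 4 rows.

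Of the sensitizers, PMAIP1 had only decreased regions. NOXA, its product, binds MCL1 and promotes its turnover. The 2 decreased regions (chr18:57571777-57572673 and chr18:57573898-57575069) were called in VAL at 8 h and lie 4529 bp and 6650 bp downstream of the TSS, past the annotated end of the gene (chr18:57567228-57571537). 2 or more decreased regions were found in that comparison at 5.47% of all genes and at 9.40% of those on chromosome 18, where 29.9% of called regions were increased. In OCI-LY3 no PMAIP1 region was on a list within 10 kb. Beyond that distance, a region 21129 bp downstream (chr18:57588377-57589067) was decreased at 8 h in both lines.

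BIK was called in VAL alone, with 3 increased regions at both times. They cover the TSS and exon 1 (chr22:43506146-43507752), part of intron 1 (chr22:43514504-43515858), and exons 3 to 5 with the 3′ UTR (chr22:43523678-43526071), the last lying closest to the TSS of MCAT. 3 or more increased regions were found at 0.952% of all genes in VAL at 3 h and at 4.89% of those on chromosome 22, and at 8 h at 5.96% and 22.4%. BCL2L11 and BIK were the members with increased regions at both times in VAL and none in OCI-LY3, as were 5.70% of all genes.

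BAD, whose activity is switched off by survival-kinase phosphorylation, was called at 8 h alone, with the same 2 increased regions in both lines. The first covers the TSS (chr11:64051751-64054076), and its midpoint lies 184 bp from the TSS of the divergent neighbour GPR137. The second (chr11:64036538-64038424) covers the last exon and the 3′ UTR, and its closest TSS is also that of GPR137.

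BMF and HRK were called in OCI-LY3 alone, each with 1 region. At BMF, which senses cytoskeletal and other stress, the region (chr15:40407620-40408888) was increased at 8 h and lies 6527 bp upstream of the TSS. At HRK, best known from neurons, the region (chr12:117295474-117296586) was decreased at 3 h and 8 h. It falls in the 3′ UTR of exon 2, 22660 bp from the TSS, and was reached through the gene body. Decreased regions were found at 7.12% of chromosome 12 genes in OCI-LY3 at 3 h and at 11.3% at 8 h.

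Regions that cover a member's TSS were increased in every case. In VAL this held for BBC3, BAX and BIK at 3 h, 3 of 10 members beside 10.0% of all genes. At 8 h it held for 5 (BBC3, BID, BAX, BIK and BAD) beside 23.9%. In OCI-LY3 it held for 2 members (BAX and BAK1) beside 5.80% at 3 h, and for 3 (BAX, BAK1 and BAD) beside 8.97% at 8 h. No member's TSS was covered by a decreased region. Across all genes such cover was rare, at 0.213% (3 h) and 3.10% (8 h) for VAL and at 0.595% and 1.16% for OCI-LY3. In all, 6 of the 19 increased regions covered the TSS of their member, while 34.9% of all increased regions covered a protein-coding TSS. The measures differ, since the BAX region near FTL covers the FTL TSS and is not among the 6.

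Between the lines, 1 member region was increased in both at 3 h, that at the BAX TSS. It makes 10.0% of the 10 member regions called in VAL and 25.0% of the 4 called in OCI-LY3. At 8 h 6 regions were shared, 33.3% of 18 in VAL and 60.0% of 10 in OCI-LY3, 2 each at BAX, BBC3 and BAD. The count falls to 3 when a region must have the member's TSS as its nearest, which drops both BAD regions and the BAX region near FTL, and to 2 within 1 kb of a TSS. For all listed regions the shares were 18.9% and 28.5% at 3 h, and 16.8% and 43.7% at 8 h. No member region was increased in one line and decreased in the other. An increased region at 8 h in both lines, not necessarily the same region, was found for BBC3, BID, BAX, BAK1 and BAD, and for 14.3% of all genes.

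BBC3, BAX, BID and BIK lie on chromosomes where, in most comparisons, nearly every call was an increase. On chromosome 19, home of BBC3 and BAX, 97.2% to 99.6% of called regions were increased across the 4 comparisons. On chromosome 22, home of BID and BIK, the shares were 99.2% and 99.6% in VAL and 45.9% (3 h) and 89.7% (8 h) in OCI-LY3, where BID had 1 increased region and BIK 0 at both times. With both chromosomes left out, a choice made after the data were seen, 6 members remained. An increased region was then found in VAL for 2 of 6 at 3 h and 3 of 6 at 8 h, beside 14.6% and 33.5% of the other genes. In OCI-LY3 it was found for 1 of 6 and 3 of 6, beside 9.84% and 17.0%. A decreased region was found for 0 and 1 of 6 in VAL, beside 5.17% and 15.7%, and for 1 of 6 at each time in OCI-LY3, beside 5.74% and 8.96%. In OCI-LY3 at 3 h the members with increased and decreased regions were then equal in number, at 1 each. What part chromosome-wide gain has in the calls at BBC3, BAX, BID and BIK was not tested.

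**Figure D4:**
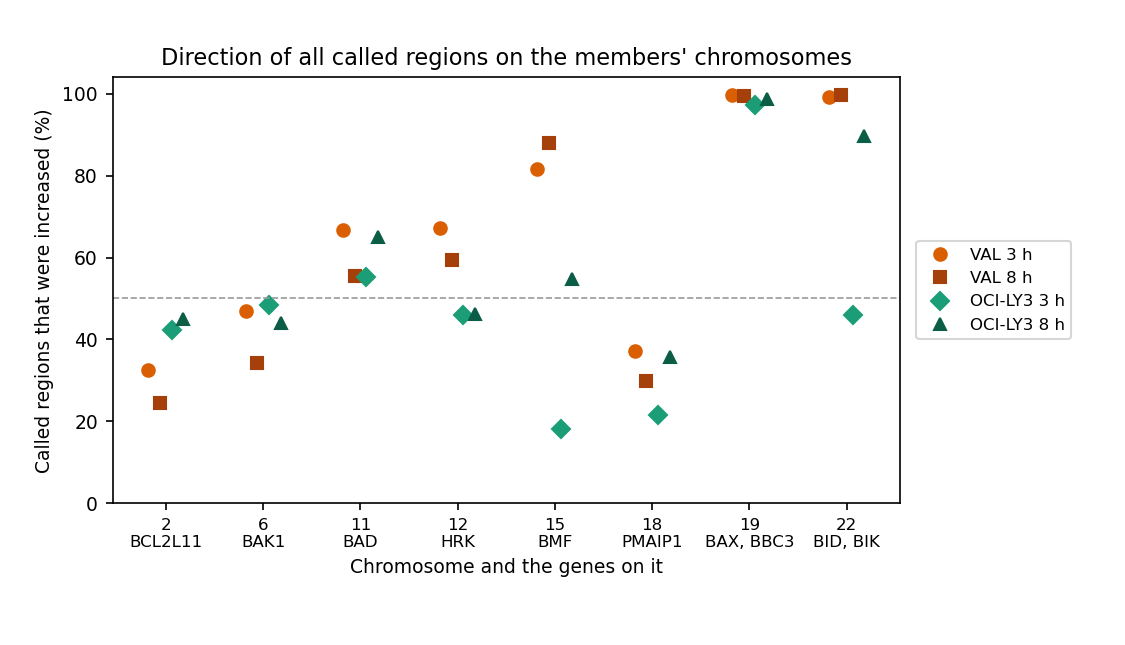
Percent of called regions that were increased on each chromosome that carries a member, for the 4 comparisons. Chromosome 19 stays between 97.2% and 99.6%, chromosome 22 falls to 45.9% in OCI-LY3 at 3 h, and chromosome 2, which carries BCL2L11, stays between 24.4% and 45.0%.

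The regions also differed in base composition, which the assignment did not use. The 19 increased regions had a median GC content of 59.4% and 4.41 CpG per 100 bp, and the 3 decreased regions 47.8% and 1.23. Over all lists the medians were 56.2% and 2.72 for increased regions and 41.4% and 0.819 for decreased ones. The 6 regions at a TSS had a median GC content of 66.0%, and the other 16 a median of 53.7%. The highest value, 80.1%, was that of the BBC3 region farthest upstream and the lowest, 38.2%, that of the second PMAIP1 region. The 2 BCL2L11 regions were increased at a GC content of only 42.2% and 46.0%.

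**Figure D5:**
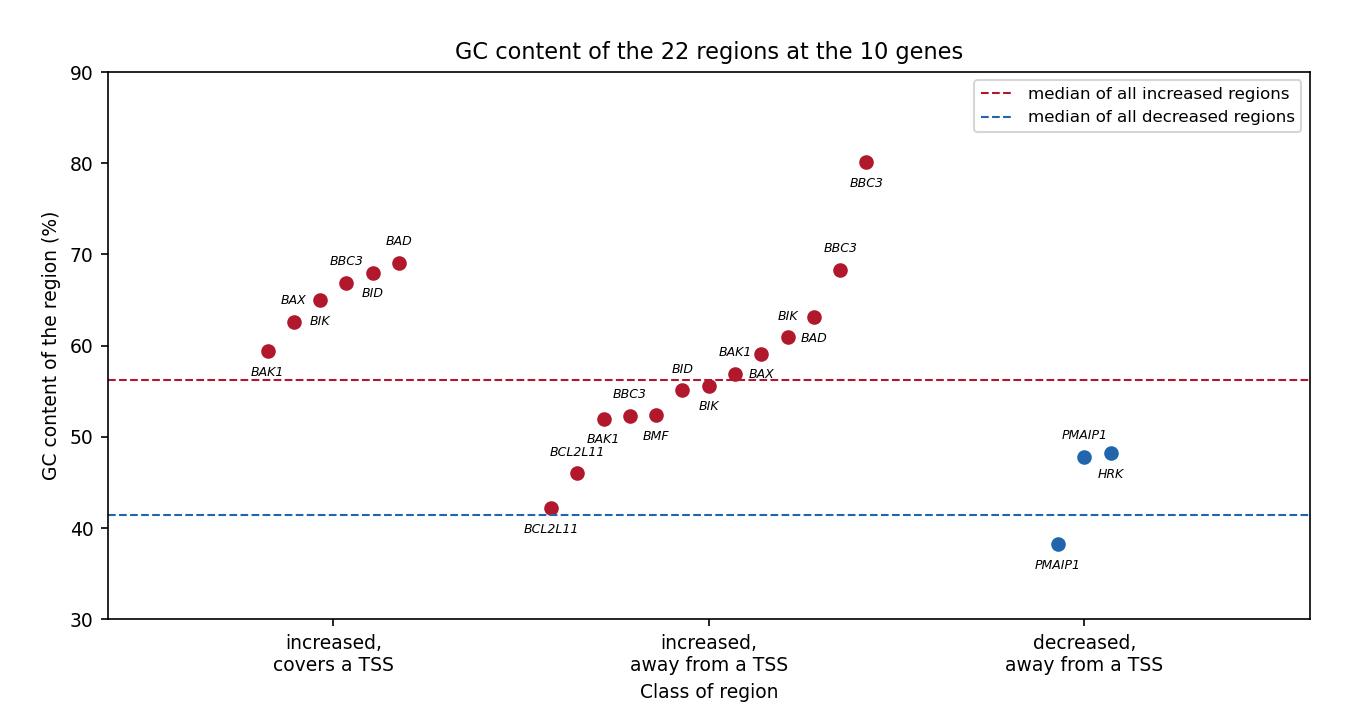
GC content (%) of each of the 22 regions, grouped by direction and by whether the region covers a TSS, with dashed lines at the medians of all increased (56.2%) and all decreased (41.4%) regions. The regions at a TSS all sit above 56.2%, while those of BCL2L11 sit with the decreased regions of PMAIP1 and HRK.

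Motifs were sought on both strands in the central 300 bp of every listed region and in the 200 bp upstream of 19881 canonical TSSs. The GC box (GGGCGG), bound by SP and KLF factors, was in 12 of the 22 member regions, in 23.8% of all listed regions and in 56.4% of the windows upstream of a TSS. Decreased regions, which are poorer in GC, make up 12877 of the listed regions but 3 of the 22. The E-box (CACGTG), bound by MYC and other basic helix-loop-helix factors, was in 1, beside 5.50%, and the CTCF motif in 1, beside 5.68%, both in the upstream BAK1 region of VAL. The AP-1 site (TGANTCA) was in none, beside 8.72% of all listed regions, and the FOXO site (TGTTTAC), beside 4.02%, was in none. The CRE (TGACGTCA, 0.565%), the NRF1 motif (0.436%) and the 20-base p53 response element with up to 2 mismatches (1.37%) were also in none. This holds for the central windows alone. Toward the edges, the BAX TSS region holds a p53 match of that kind, centred 347 bases downstream of the TSS, AP-1 sites lie in regions of BBC3, PMAIP1, BCL2L11 and BAK1, and FOXO sites in regions of BBC3, BAX and BIK. Further E-boxes lie in regions of BBC3, BCL2L11, BID, BAX and BIK, and further CTCF matches at BBC3 and BID.

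The printed windows differed in motif content. The 4 E-boxes upstream of BAX are centred 136, 91, 43 and 12 bases before the TSS, and 4 or more E-boxes were found in 6 of the 19881 upstream windows (0.0302%). The threshold of 4 was set after this window had been seen. The window at the BAK1 TSS, by contrast, had 3 CpG and 2 GC boxes and no E-box. The PMAIP1 window had 2 CpG, the BCL2L11 window had 1, and neither held a match to any motif searched. A match describes these letters and does not show that a factor was bound.

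The rest of the pathway was taken from 2 lists. Of 6 anti-apoptotic genes, MCL1 and BCL2L1 (BCL-XL) had an increased region in all 4 comparisons, as did 5.46% of all genes. In VAL 2 of the 6 had an increased region at 3 h and 3 at 8 h, beside 16.9% and 36.9% of all genes. In OCI-LY3 it was 2 at each time, beside 10.6% and 19.0%. BCL2 was the 1 gene of that list with a decreased region, in VAL at both times and at 8 h in OCI-LY3. The matching shares of all genes were 4.70%, 14.2% and 8.18%. It is named after its values were seen, for its number of decreased regions: 13 and then 15 in VAL, 0 and then 1 in OCI-LY3, within a search window of 207 kb. How many genes had as many decreased regions was not counted. On chromosome 18, which carries BCL2, only 37.1% and 29.9% of the regions called in VAL were increased. Of 17 genes that act beside or downstream of BAX and BAK1, such as caspases and their inhibitors, an increased region was found in VAL for 2 at 3 h and 6 at 8 h, and in OCI-LY3 for 0 and 1. The matching shares of all genes were 16.9% and 36.9% in VAL, and 10.6% and 19.0% in OCI-LY3. A decreased region was found for 0 and 4 in VAL, beside 4.70% and 14.2% of all genes, and for 1 and 2 in OCI-LY3, beside 5.29% and 8.18%. None of the 17 was called the same way in all 4 comparisons.

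The distance limit decided a few regions. Just inside it stood the BAX region near FTL, at 9717 bp. Just outside it stood regions 11114 bp upstream of BBC3 (chr19:47747137-47748144), increased in VAL at both times, and 11958 bp upstream of BAK1 (chr6:33560028-33561328), increased in OCI-LY3 at both times and in VAL at 8 h.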

How the data were processed

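ATAC-seq libraries were made from VAL and OCI-LY3 cells after 0, 3 and 8 h of AZD4573. Per the study's methods and the submitters' processing notes, the authors used Bowtie2 for alignment to hg19, ran MACS2 on every sample, merged the peaks and counted reads with bedtools, and compared times with DESeq2. Versions for the ATAC-seq data are not given in the sources used here. The files the authors deposited are 8 BED lists, 1 for each line, time and direction, whose values are region coordinates in bp. They hold 0 columns of per-sample values, so no test was made and depth is unknown.

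Regions were placed against GENCODE 44 lifted to GRCh37, using the TSSs of transcripts tagged basic, with at least 1 bp of overlap and a window of 10 kb or the gene body. Members in each list were counted beside all 20163 protein-coding genes placed the same way. Regions of 2 lists were called the same where their coordinates were equal. Sequences were read from hg19, and counts, base composition and motifs came from Python 3.11.15 with pysam 0.24.0, pandas 2.3.3 and numpy 2.4.6, and plots from matplotlib 3.10.9. Placement and motif search were tested on simulated data.

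The members and gene lists were chosen with earlier results of these data known. All 10 members are named with each of their regions. Other genes are named where their TSS is the nearest to a member's region, or where a gene of the pathway lists was called the same way in all 4 comparisons. BCL2 is an exception, named after its values were seen. By the rule fixed for sequences, upstream sequence is shown for TSS regions called in both lines, or else at both times in VAL. Some windows that this rule names are not reported here. Alternatives changed the window, the placement, the transcripts and the rule for shared regions.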

Additional observations from a re-analysis of the deposited data

Results flagged for a closer look

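1 region near a member went in opposite directions in the lines. It lies outside the 10 kb limit, with its edge at -19109 bp from the nearest BCL2L11 TSS, upstream of the gene (chr2:111857756-111859382). It was increased in VAL at 8 h and decreased in OCI-LY3 at 3 h and 8 h, and the difference between the lines was not tested. Opposite calls at 8 h were made at 105 of all listed regions, out of 20381 called in VAL and 7830 in OCI-LY3.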

How the results depend on the processing

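Of 82 alternative values for the counts of members and of shared regions, 64 stayed within 1.5 times the value given in the report and 18 moved. Of 70 alternative values for the number of regions at each member, 26 moved: BMF had 0 with a window of 5 kb, BCL2L11 and HRK 0 with gene bodies left out, and BAD 0 under the nearest-TSS rule. A window of 50 kb raised the members with a decreased region to 2 (VAL, 8 h), 2 (OCI-LY3, 3 h) and 3 (OCI-LY3, 8 h), beside 21.3%, 9.99% and 13.8% of all genes, and the regions shared between the lines to 5 at 3 h and 16 at 8 h. With gene bodies left out, the decreased count in OCI-LY3 was 0 at 3 h and 0 at 8 h, beside 2.27% and 3.38% of all genes, since the HRK region was reached only through the gene body. With 1 kb around a TSS and no gene bodies, increased members were 3 (VAL, 3 h) and 3 (OCI-LY3, 8 h), beside 10.3% and 9.30% of all genes. Decreased members were then 0 at 8 h for VAL and 0 at both times for OCI-LY3, beside 3.38%, 0.694% and 1.28%, and 2 regions were shared at 8 h. Keeping only regions whose nearest protein-coding TSS is the member's left 3 shared at 8 h. Leaving out chromosomes 19 and 22, chosen after seeing the data, left only 6 members. Increased members were then 2 (VAL, 3 h), 3 (VAL, 8 h), 1 (OCI-LY3, 3 h) and 3 (OCI-LY3, 8 h). The shares of the other genes were 14.6%, 33.5%, 9.84% and 17.0%. These counts are among the 18 that moved, but the smaller set can lower them by itself. No paired analysis was possible because the lists hold no values for single libraries. For the same reason no replicate could be left out and no stricter peak threshold applied.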
